A study of Mus musculus with 185 samples.

Results

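The genes described here make cholesterol and fatty acids or control that synthesis. They were taken by name as 33 of the 57010 genes in the count matrix: 20 enzymes of cholesterol synthesis, the sterol carrier gene Stard4, 5 regulators of the SREBP transcription factors and 7 genes of fatty acid synthesis. Gene expression was measured by bulk RNA-seq in brain tissue of 37 mice, all males of the inbred strain C57BL/6 J, bought at 8 weeks of age. In the 16 h study, pair-housed mice received chow, received a high-fat diet (HFD) or were fasted (6 mice in 3 cages per diet). In the 24 h study, single-housed mice received chow (9 mice) or were fasted (10 mice). 5 regions were sequenced per mouse: hypothalamus, hippocampus, superior colliculus and inferior colliculus in both studies, prefrontal cortex at 16 h and zona incerta at 24 h. Each region but the hypothalamus came from the left or the right hemisphere at 16 h and from the left at 24 h. The counts of the 5 columns of each mouse were added up, so all values are for the sequenced regions of a mouse together and a change in a single region was not analysed here.

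Brain cells make most of their cholesterol themselves, because lipoproteins hardly cross from blood into brain. Acetyl-CoA is turned into mevalonate, then into isoprenoids and squalene, and the first sterol formed from squalene is trimmed to cholesterol in a series of further steps. The transcription factors SREBP2 (gene Srebf2) and SREBP1 (gene Srebf1) switch on genes of sterol and fatty acid synthesis. They are held in the endoplasmic reticulum with SCAP by the INSIG proteins while sterol is plentiful, and are cut and sent to the nucleus when it falls. In brain, myelin-forming oligodendrocytes and astrocytes are rich in the products of these genes.

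Depth ran from 57962237 to 161577364 counts per mouse. Of the 185 columns, 27 were low in counts or in detected genes, 4 at 16 h and 23 at 24 h. The mitochondrial share of counts was 3.78 to 4.98% in the 16 h mice and 8.57 to 16.7% in the 24 h mice. In the 24 h study, a block of libraries without detectable RNA, from both diets but uneven by region, was sequenced on a separate flowcell. Its superior colliculus libraries came from fasted mice 1424, 1433, 1434 and 1435 and from chow mouse 1422. The usable mix of regions thus differs between the diets, and its part in the fold changes was not tested. The paper discarded this block as defective, but the sums used here keep all columns, failed libraries included. It also reports that superior colliculus samples of chow mouse 1423 and fasted mouse 1454 had been exchanged by mistake, and that their metadata were corrected. Both mice are in the sums, and an alternative fit leaves them out together with fasted mouse 1455. All 33 genes passed the filter on low counts in both studies. Markers of neurons, astrocytes and oligodendrocytes, the cell types of brain tissue, were above 0 in every mouse, and the summed level of 10 myelin markers was 2614 to 4681 CPM (counts scaled to the size of the library) at 16 h and 4093 to 8149 CPM at 24 h.

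The sterol regulatory element (SRE), the DNA motif that SREBPs bind, was looked for in the 300 bases upstream of the start of each gene's canonical transcript (GRCm39, GENCODE vM39). The letters TCACNCCAC were searched on both strands and occurred in 4 of the 33 genes (12.1%), against 272 of 21757 protein-coding genes (1.25%). The 4 stretches are shown as the matches to these exact letters in these windows. Other forms of the motif and other windows were not searched, so a gene without a match may still hold a site. Each is given from 5′ to 3′ on the strand of the gene, with the motif in capitals:
Hmgcs1: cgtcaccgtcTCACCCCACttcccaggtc
Acss2: ctacaccccaTCACTCCACgggcccgcct
Acaca: acaggcacacTCACACCACaccctgggtg
Fasn: cgcgcgggcaTCACCCCACcggcggcggc

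The Hmgcs1 stretch is at chr13:120151740-120151768 on the plus strand, before the first exon of Hmgcs1 and within an exon of the minus-strand gene Gm60502. In Acss2 the stretch is at chr2:155359672-155359700 on the plus strand, within a 5′ untranslated exon of another Acss2 transcript and within the minus-strand gene Ggt7, and a second copy of the motif begins 239 bases before the start. The Acaca stretch, at chr11:84063840-84063868 on the plus strand, is in an intron of longer Acaca transcripts, and the Fasn stretch, at chr11:120715063-120715091 on the minus strand, is in a 5′ untranslated exon of other Fasn transcripts. CCAAT, the box bound by the factor NF-Y that acts beside SREBP, occurred on either strand in 20 of the 33 windows (60.6%) and in 40.4% of those of all protein-coding genes. Among the cholesterol synthesis genes, 14 of 20 windows held CCAAT and 1 of 20 held the SRE letters. A match of letters is a description of the window and was not tested as a binding site.

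Levels were compared between genes only per kb of exon, as CPM per kb. In chow mice of the 16 h study, Scd2, a desaturase that makes oleate from stearate and is the main form in brain, stood highest at 218 ± 16.3 CPM per kb (SD, n = 6). Next came Fasn, fatty acid synthase, at 45.8 ± 2.59 CPM per kb, and Scd1, a close relative of Scd2, at 39.8 ± 4.90 CPM per kb, with ranges of SD that did not separate these 2. Hmgcs1, which makes HMG-CoA ahead of mevalonate, was the highest gene of cholesterol synthesis at 30.6 ± 2.92 CPM per kb, and Srebf2 the highest regulator at 25.7 ± 1.55. The lowest were Lbr at 2.04 ± 0.0761, Idi1 at 1.81 ± 0.123 and Mvk at 1.59 ± 0.109 CPM per kb.

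**Figure D1:**
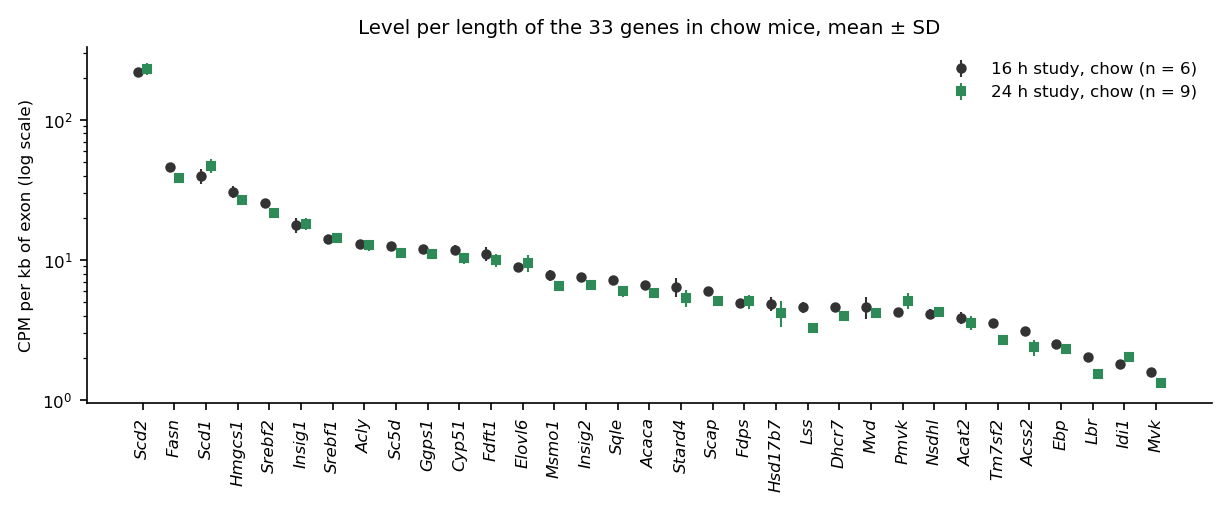
Level per kb of exon (CPM per kb, log scale) of the 33 genes in chow mice, as mean ± SD over 6 mice of the 16 h study (black circles) and 9 mice of the 24 h study (green squares), in the order of the 16 h means. Scd2 stands above all others in both studies, each of which was normalized on its own.

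After 24 h of fasting, mRNA of 9 of the 20 cholesterol synthesis enzymes was lower than on chow. Of all 33 genes, 12 fell and 2 rose at an adjusted p under 0.05 (edgeR quasi-likelihood test, Benjamini-Hochberg over all genes), which is 14 of 33 where 11.4% of the 29011 genes tested were called (5.62% lower, 5.78% higher). In none of the 33 did the CPM of the diets lie fully apart, where 1.6% of all genes had no overlap. Among the cholesterol synthesis genes, 1 also rose and 10 did not pass the test. The median log2 fold change was -0.21 over these 20, -0.16 over the 7 fatty acid synthesis genes, 0.01 over the 5 regulators and -0.0044 over all genes tested. In tissue homogenates, fewer cells of a type and less RNA per cell cannot be told apart.

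**Figure D2:**
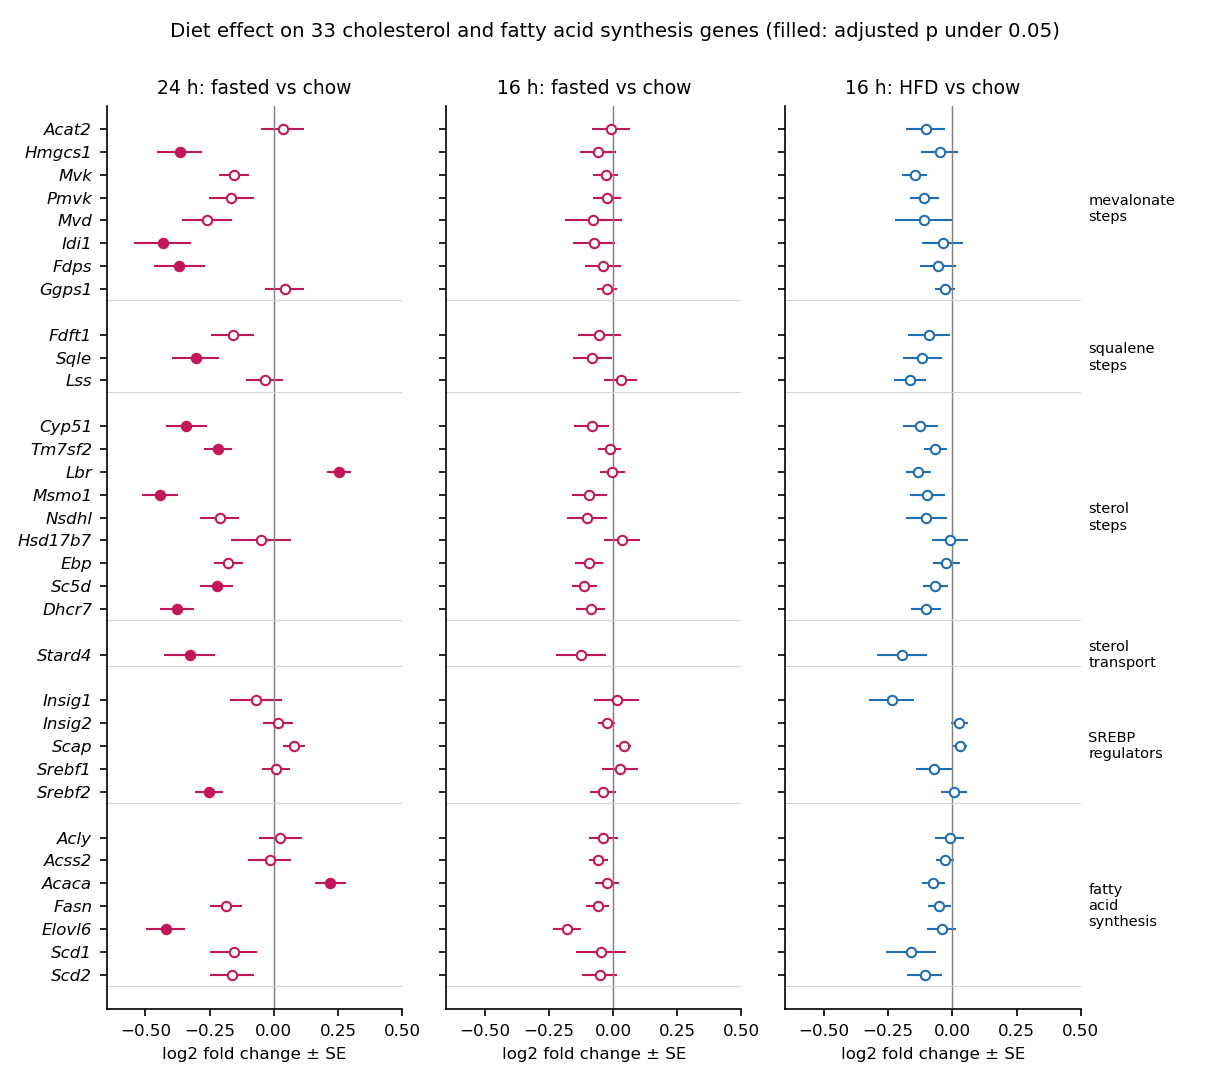
Log2 fold change ± SE (edgeR) of the 33 genes, grouped by role, for fasted against chow at 24 h, fasted against chow at 16 h and HFD against chow at 16 h. Filled points have an adjusted p under 0.05. There are 14 at 24 h, 12 to the left of 0, and none at 16 h.

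In the mevalonate steps, 3 of 8 genes fell. Hmgcs1 was at 125, 142 and 157 CPM (lowest, median and highest) in chow mice and at 79.7, 103 and 143 CPM in fasted mice. 8 of 10 fasted mice were below the lowest chow mouse, and the groups overlapped through the other 2. The fold change was -0.37 on the log2 scale (SE 0.0877, adjusted p = 0.00876). Idi1, which isomerises the isoprenoid unit, ran from 6.66 through a median of 6.91 to 8.07 CPM on chow and from 3.66 through 5.25 to 7.34 CPM in fasted mice. Again 8 of 10 fasted mice lay below all chow mice, and Idi1 fell by 0.43 (SE 0.111, adjusted p = 0.0140). Fdps, which joins these units to farnesyl diphosphate, was at 20.8, 24.8 and 29.2 CPM on chow and at 14.8, 17.9 and 25.1 CPM after fasting. 7 of 10 fasted mice were under the chow range, with a log2 fold change of -0.37 (SE 0.0996, adjusted p = 0.0191). The other 5 genes of these steps did not pass the test: the decarboxylase gene Mvd had -0.26 (95% interval -0.46 to -0.06, adjusted p = 0.0894), the kinase genes Mvk and Pmvk had -0.16 and -0.17, and Acat2 and Ggps1 had 0.03 and 0.04. Ggps1 makes geranylgeranyl diphosphate for protein prenylation, and Acat2 condenses acetyl-CoA.

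Of the 3 genes around squalene, 1 fell. Sqle, squalene epoxidase, is a rate-limiting enzyme of the sterol part of the pathway. It ran from 46.9 through 54.3 to 58.8 CPM on chow and from 30.6 through 42.1 to 59.0 CPM after fasting. 8 of 10 fasted mice lay below every chow mouse while 1 was above all of them, and the log2 fold change was -0.30 (SE 0.0921, adjusted p = 0.0357). This call was lost without any 1 of 11 of the 19 mice (chow 1423, 1431, 1432, 1441, 1442 and 1443, fasted 1433, 1434, 1444, 1453 and 1454), with adjusted p up to 0.0695. Fdft1, squalene synthase, had -0.16 (95% interval -0.33 to 0.01), and Lss, which closes the sterol rings, had -0.04 (95% interval -0.19 to 0.12).

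In the steps from the first sterol to cholesterol, 5 of 9 genes fell and 1 rose. Msmo1, which oxidises the methyl groups at carbon 4, was at 50.9, 56.9 and 62.7 CPM in chow mice and at 37.8, 39.8 and 56.1 CPM in fasted mice. 9 of 10 fasted mice were below the lowest chow mouse, and the log2 fold change of -0.44 was the largest fall among the 33 genes (SE 0.0697, adjusted p = 0.000199). Dhcr7, which reduces 7-dehydrocholesterol to cholesterol, ran from 29.8 through 32.7 to 36.3 CPM on chow and from 20.6 through 24.0 to 31.1 CPM after fasting. 9 of 10 fasted mice were again below the chow range, with a fall by 0.38 on the log2 scale (SE 0.0648, adjusted p = 0.000524). Cyp51, the lanosterol demethylase, was at 54.0, 60.3 and 68.7 CPM on chow and at 38.2, 46.2 and 64.2 CPM after fasting. 8 of 10 fasted mice were below the chow range, and Cyp51 fell by 0.34 (SE 0.0816, adjusted p = 0.00889). Sc5d, a sterol desaturase, ran from 62.4 through 70.1 to 75.2 CPM on chow and from 48.2 through 58.3 to 72.3 CPM after fasting. 8 of 10 fasted mice were under the chow mice, and the fold change was -0.22 (SE 0.0640, adjusted p = 0.0272). The Sc5d call was lost without chow mouse 1423, 1431, 1432 or 1441 or fasted mouse 1453, with adjusted p up to 0.0596.

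Tm7sf2 and Lbr encode reductases that act on the same sterol double bond, and they went opposite ways. Tm7sf2 was at 11.7, 13.1 and 15.3 CPM in chow mice and at 9.70, 11.3 and 12.7 CPM in fasted mice. All 10 fasted mice were below the chow median and 7 below the lowest chow mouse, with a log2 fold change of -0.22 (SE 0.0563, adjusted p = 0.0147). Lbr, also the lamin B receptor of the inner nuclear membrane, was at 16.9, 17.6 and 19.6 CPM in chow mice and at 19.3, 21.4 and 24.3 CPM in fasted mice. 9 of 10 fasted mice were above the highest chow mouse, and Lbr rose by 0.25 (SE 0.0455, adjusted p = 0.000782). Both genes overlap other genes, Tm7sf2 with Vps51 on the same strand and Lbr with Dnah14 on the opposite strand. Hmgcs1, Sqle, Cyp51 and Srebf2, which fell, also overlap a protein-coding gene on the opposite strand. The strand of the counting is not given in the sources used here. The 3 remaining genes did not pass the test. Ebp, a sterol isomerase, had -0.18 (95% interval -0.30 to -0.06, adjusted p = 0.0527), the dehydrogenase gene Nsdhl had -0.21 (95% interval -0.37 to -0.05, adjusted p = 0.0858), and the reductase gene Hsd17b7 had -0.05 (95% interval -0.29 to 0.19).

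Stard4 encodes a protein that carries cholesterol between membranes in the cell. It was at 27.7, 32.5 and 42.6 CPM on chow and at 19.6, 24.8 and 32.9 CPM after fasting. 6 of 10 fasted mice were below the chow range, and the fold change was -0.33 (SE 0.0989, adjusted p = 0.0353). This call did not hold without any 1 of 11 mice (chow 1423, 1431, 1432, 1441 and 1443, fasted 1433, 1434, 1444, 1445, 1453 and 1454), with adjusted p up to 0.0826.

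**Figure D3:**
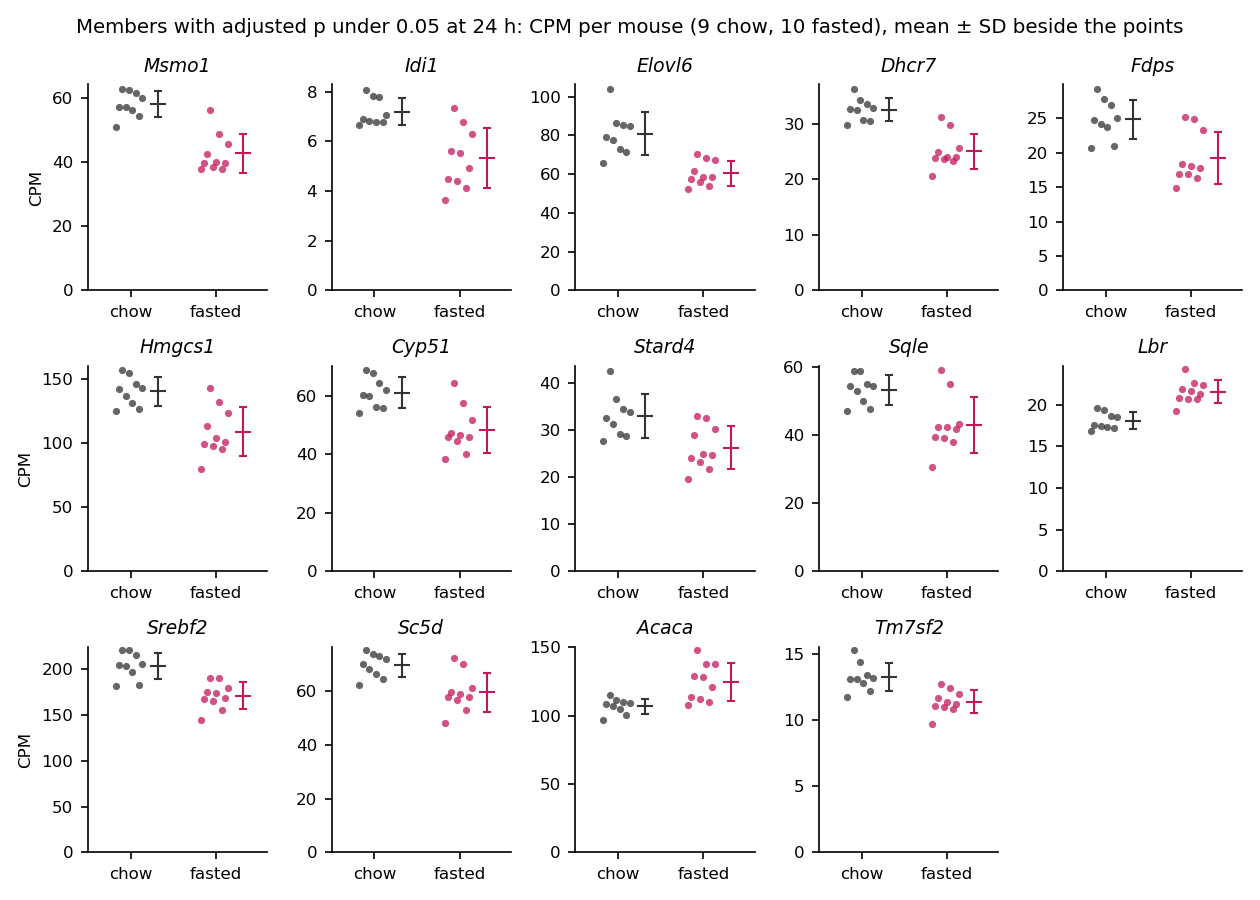
CPM per mouse (axes from 0) of the 14 genes with an adjusted p under 0.05 at 24 h, in 9 chow mice (grey) and 10 fasted mice (magenta), with mean ± SD beside the points. The ranges of the diets overlap in all 14. Lbr and Acaca are higher in fasted mice and the other 12 are lower.

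Among the SREBP regulators, 1 of 5 fell. Srebf2 was at 182, 204 and 220.5 CPM in chow mice and at 144, 171 and 190.4 CPM in fasted mice. All 10 fasted mice were below the chow median and 8 were below the chow range, with a log2 fold change of -0.25 (SE 0.0554, adjusted p = 0.00465). Srebf1 was at 74.6, 85.3 and 93.0 CPM on chow and at 78.2, 83.5 and 103 CPM after fasting, ranges that largely overlapped, with a fold change of 0.01 (95% interval -0.11 to 0.12). Insig1, itself a target of SREBP, ran from 77.4 through 84.9 to 100.1 CPM on chow and from 60.2 through 81.4 to 121 CPM in fasted mice. Fasted mice thus lay on both sides of the chow range, with a fold change of -0.07 (95% interval -0.28 to 0.14). Insig2 was at 35.8, 38.2 and 43.5 CPM on chow and at 35.3, 39.5 and 49.3 CPM after fasting, with a fold change of 0.02 (95% interval -0.11 to 0.14). Scap was at 58.6, 64.1 and 71.5 CPM on chow and at 60.3, 68.8 and 73.7 CPM after fasting, with a fold change of 0.08 (95% interval -0.01 to 0.17). For these 4 genes the groups overlapped and the test did not pass.

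In the fatty acid branch, 1 of 7 genes fell and 1 rose. Elovl6, which lengthens palmitate to stearate, was at 65.5, 79.1 and 104 CPM in chow mice and at 52.2, 58.4 and 70.4 CPM in fasted mice. All 10 fasted mice were below the chow median, and Elovl6 fell by 0.42 (SE 0.0763, adjusted p = 0.000859). Acaca, acetyl-CoA carboxylase 1, which makes malonyl-CoA, was at 96.7, 108 and 115 CPM on chow and at 108, 125 and 148 CPM after fasting. 6 of 10 fasted mice were above the highest chow mouse, with a log2 fold change of 0.22 (SE 0.0595, adjusted p = 0.0190). Acaca overlaps Tada2a on the opposite strand. Fasn was at 402, 444 and 505 CPM on chow and at 346, 389 and 464 CPM after fasting, with a fold change of -0.19 that did not pass (95% interval -0.32 to -0.05, adjusted p = 0.0617). Scd1 and Scd2 had -0.16 each, with adjusted p of 0.311 and 0.247. How reads matching both of these related genes were counted was not examined. Acly, which makes cytosolic acetyl-CoA from citrate, had 0.03 (95% interval -0.15 to 0.20), and Acss2, which makes it from acetate, had -0.02 (95% interval -0.19 to 0.15). Of the 4 genes with the SRE letters, Hmgcs1 fell, Acaca rose, and Fasn and Acss2 did not pass the test.

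As a mean over genes per mouse, on the log2 scale relative to the chow mice, cholesterol synthesis stood at -0.21 ± 0.173 in the 10 fasted mice and 0.00 ± 0.0818 in the 9 chow mice (SD). Fatty acid synthesis stood at -0.10 ± 0.145 against 0.00 ± 0.123. The difference between both means in a mouse, cholesterol less fatty acid, was -0.10 ± 0.0743 in fasted mice and 0.00 ± 0.0739 in chow mice, so the spreads of the diets overlap. The regulators stood at -0.05 ± 0.110 against 0.00 ± 0.0748. Highest for cholesterol synthesis among the fasted mice were 1424 (0.12) and 1425 (-0.02). The same mice were those not below the chow range for Hmgcs1, Sqle, Cyp51, Sc5d and Srebf2. Counts of mice are thus not independent between genes. The means over genes describe the genes chosen and were given no test.

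**Figure D4:**
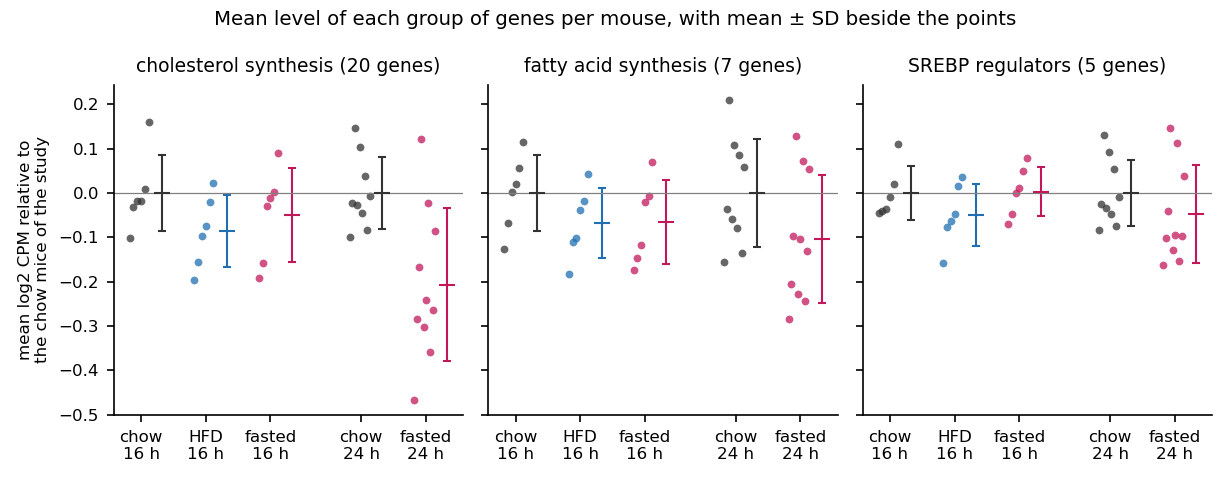
Mean log2 CPM per mouse, relative to the chow mice of the same study, over the cholesterol synthesis genes (20), the fatty acid synthesis genes (7) and the SREBP regulators (5), with mean ± SD of each group beside the points. The 24 h fasted mice spread from -0.47 to 0.12 for cholesterol synthesis, and the groups overlap in every panel.

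Cell type markers were measured in the same mice. At 24 h, 10 myelin markers summed to 4093 to 7294 CPM on chow and 4140 to 8149 CPM in fasted mice. Their fold change was below 0 in 7 of 10, with a median of -0.20, and 2 of the 10 were called: Mobp rose (0.52) and Opalin fell (-1.26). Of 8 astrocyte markers, 2 fell (Aqp4, -0.85, and Gja1, -0.25) and 1 rose (Gjb6, 0.70), with sums of 3778 to 4993 CPM on chow and 4349 to 5668 CPM after fasting. Microglia markers fell in 3 of 6, and 2 of 6 markers of oligodendrocyte precursors rose. Endothelial markers fell in 2 of 6 and rose in 1. None of 8 neuron, 5 choroid plexus and 5 blood markers was called (edgeR, 0 at an unadjusted p under 0.05). With the mean of the myelin markers as a covariate, 11 of the 33 genes were called, 9 lower and 2 higher. This mean includes Mobp and Opalin, which themselves differed between the diets, so it does not measure myelin content apart from diet. Over all 29011 genes tested, 2621 were called with this covariate and 3307 without it. Sqle, Sc5d and Stard4 were no longer among the called members, at fold changes of -0.30, -0.21 and -0.29 on the log2 scale. The part of the other cell types in the falls was not tested.

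Other genes of sterol and fatty acid handling were compared at 24 h by the same fit, in which 11.4% of all genes tested were called. Erg28, a further gene of sterol synthesis, fell (-0.14, adjusted p = 0.0388), a call lost in 5 of 8 alternatives and in 11 of the 19 fits that leave out a mouse (chow 1422, 1423, 1431, 1432, 1441, 1442 and 1451, fasted 1433, 1444, 1453 and 1454), with adjusted p up to 0.0963. Of 16 genes of elongation, desaturation and their supply, 3 passed. Acacb, the mitochondrial acetyl-CoA carboxylase, rose from a median of 14.0 CPM to 21.4 CPM (log2 fold change 0.70, adjusted p = 0.000715). Mid1ip1, an activator of acetyl-CoA carboxylase, fell by 0.49 (adjusted p = 0.000988), and Fads2, the desaturase at the start of polyunsaturated fatty acid synthesis, fell by 0.35 (adjusted p = 0.00780). Of 10 genes of SREBP processing and its partners, Spring1 rose (0.30, adjusted p = 0.00225) and the NF-Y subunit gene Nfya fell (-0.30, adjusted p = 0.0409). The Nfya call was lost in 4 of 8 alternatives and without any 1 of 14 mice (all but chow 1423, 1431 and 1451 and fasted 1435 and 1445), with adjusted p up to 0.0896. None of 7 genes of sterol uptake was called (edgeR, 2 at an unadjusted p under 0.05).

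Sterol efflux and turnover, with 12 genes, had 3 that rose and 1 that fell, where 5.78% of all genes tested rose and 5.62% fell. Abca1, the pump that loads cholesterol onto apolipoproteins, was at 91.2, 95.9 and 109 CPM in chow mice and at 119.8, 143 and 177 CPM in fasted mice. All 10 fasted mice were above the highest chow mouse, and Abca1 rose by 0.55 (SE 0.0651, adjusted p = 8.99e-06). Ch25h, which makes 25-hydroxycholesterol, rose from a median of 0.140 CPM to 0.285 CPM, with 1 mouse at 1.26 CPM (log2 fold change 1.57, SE 0.365, adjusted p = 0.00709). With equal weight per column the log2 fold change of Ch25h was 0.83 (adjusted p = 0.0173). The efflux pump gene Abcg1 rose by 0.23 (adjusted p = 0.0107). Soat1, which esterifies cholesterol, fell from a median of 67.8 CPM to 57.2 CPM (-0.23, adjusted p = 0.00284).

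After 16 h of fasting, no gene of the 33 passed the test (edgeR, 0% of 29746 genes called), and 2 had an unadjusted p under 0.05, where 7.62% of all genes did. The log2 fold change was below 0 in 28 of 33, with a median of -0.05 against -0.0034 over all genes. Elovl6 had the lowest p. It was at 66.5, 77.9 and 82.4 CPM on chow and at 59.4, 68.0 and 71.6 CPM after fasting, ranges that overlapped, with a fold change of -0.18 (95% interval -0.30 to -0.06, adjusted p = 0.565). Sc5d had -0.11 (95% interval -0.22 to -0.01) and Ebp -0.09 (95% interval -0.21 to 0.02). Srebf2 was at 218, 239.6 and 259.6 CPM on chow and at 222, 229 and 250.2 CPM after fasting, with a fold change of -0.04 (95% interval -0.15 to 0.07). The other regulators lay within 0.05 of no change, from -0.02 for Insig2 through 0.01 for Insig1 and 0.03 for Srebf1 to 0.04 for Scap.

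On HFD for 16 h, no gene of the 33 passed the test either (edgeR, 0% of 29746 genes called), and 4 had an unadjusted p under 0.05, where 9.8% of all genes did. All 20 cholesterol synthesis genes had a fold change below 0, with a median of -0.10 against -0.00797 over all genes, but Ggps1 (0.00483) and Ebp (0.00734) were above 0 with the myelin covariate and Hsd17b7 (0.00281) with counts added up per cage. Mvk was at 16.6, 17.4 and 19.6 CPM on chow and at 15.2, 16.0 and 17.0 CPM on HFD, overlapping ranges, with a fold change of -0.15 (95% interval -0.25 to -0.04, adjusted p = 0.503). Insig1 was at 77.9, 83.4 and 106 CPM on chow and at 67.0, 72.1 and 83.2 CPM on HFD (-0.24, 95% interval -0.42 to -0.05), and Lbr at 22.9, 23.6 and 25.4 CPM and at 19.4, 22.0 and 23.0 CPM (-0.13, 95% interval -0.24 to -0.03). Both had an adjusted p of 0.503. Beside these values, the fold change was below 0 in 10 of 10 myelin markers, with a median of -0.19 and sums of 3123 to 4681 CPM on chow and 2614 to 4326 CPM on HFD. All 5 choroid plexus markers were above 0 (sums of 19.3 to 108 CPM on chow and 24.7 to 595 CPM on HFD). Their part in the cholesterol gene values was not tested.

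Fasting against HFD at 16 h used the same fasted and HFD mice as the comparisons with chow. No gene of the 33 passed, where 0.219% of 29746 genes were called, and 5 had an unadjusted p under 0.05, where 11.4% of all genes did. Lss was at 48.4, 54.7 and 59.6 CPM in fasted mice and at 43.9, 46.5 and 52.5 CPM on HFD, with overlap (0.20, 95% interval 0.06 to 0.33, adjusted p = 0.202). Insig1 was at 74.5, 88.1 and 101 CPM in fasted mice (0.25, 95% interval 0.07 to 0.43, adjusted p = 0.249), and Lbr at 21.6, 24.2 and 25.4 CPM (0.13, 95% interval 0.03 to 0.23, adjusted p = 0.294).

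The fasting effects of both studies were compared directly in a fit over all 37 mice. Of the 33 genes, 1 differed, Lbr, where 1.7% of 30849 genes did. The effect on Lbr was larger at 24 h by 0.26 on the log2 scale (SE 0.0666, adjusted p = 0.0313), from 0.25 at 24 h and 0.00 at 16 h. Msmo1 had a difference of -0.35 (95% interval -0.56 to -0.14, adjusted p = 0.0841) and Dhcr7 one of -0.29 (95% interval -0.47 to -0.10, adjusted p = 0.128), neither past the test. Hours of fasting, housing, clock time, hemisphere, 1 of the 5 regions and the sequencing runs changed together with the study and cannot be told apart.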

How the data were processed

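The authors demultiplexed reads with bcl2fastq 2.20.0 and aligned them with STAR 2.7.3a to GRCm39 (versions from the submitters' processing notes), and deposited raw counts per gene, unfiltered. Annotation release and counting strand are not given in the sources used here, so counts of the 15 members that overlap a protein-coding gene are uncertain. The deposited matrix has 37 headings over 5 columns each. Each heading names a single sample but stands over all 5 libraries of the mouse of that sample. The region of a column is therefore not given by its heading, and columns were summed per mouse. The order of the columns was not used to assign regions.

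Sums passed filterByExpr and TMM and were tested by glmQLFit and glmQLFTest (edgeR 4.0.16, R 4.3.3), with Benjamini-Hochberg adjustment over all genes and a call at adjusted p under 0.05. The 3 diets at 16 h shared a fit. SE is the absolute log2 fold change over the square root of F, and 95% intervals use the test's degrees of freedom. CPM used TMM within a study, and CPM per kb the union of exons in GENCODE vM39. Alternatives used DESeq2 1.42.0 and limma 3.58.1, other size factors, filters, columns, covariates, cage sums and mice. Tests were checked on simulated counts.

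Members and lists were chosen with earlier results of these data known. Values over mice are given for members called at 24 h, the regulators, the 3 members of lowest p per 16 h comparison, and up to 3 called genes per related list. Of the sterol synthesis genes outside the members, Erg28 alone is reported here. Abcg1, Fasn and the markers were named after their values were seen. Mice of the 16 h study shared cages, so its p-values treat cage mates as separate. A low column had under 1000000 counts or under 16000 genes expected in 500000 counts. Low columns are not the same set as the failed libraries: fasted mouse 1445 has a failed library but no low column. The fits without low columns therefore do not repeat the paper's exclusion.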

Additional observations from a re-analysis of the deposited data

Results flagged for a closer look

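Single mice stood apart from the others of their group in 4 of 105 groups of values examined (Dixon's gap test at 95%), and chance alone flags about 1 in 20. In the 16 h chow group, mouse 4 was highest for Cyp51 at 81.1 CPM, with the next mouse at 71.3 CPM, and for Insig1 at 106 CPM, with the next at 88.6 CPM. This mouse has 1 low column. Chow mouse 5 of the same study was lowest for Ebp at 9.03 CPM, with the next at 10.3 CPM. Among 24 h fasted mice, mouse 1435 was highest for Insig2 at 49.3 CPM, with the next at 41.8 CPM.

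The fasting effect differed between the studies for Lbr, by 0.259 on the log2 scale (24 h less 16 h, SE 0.0666, adjusted p = 0.0313 by edgeR's quasi-likelihood test), and for Abca1, by 0.463 (SE 0.0848, adjusted p = 0.00116).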

How the results depend on the processing

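At 24 h, 10 to 18 of the 33 genes were called under the 8 alternatives and 11 to 18 without each mouse in turn. Calls over all genes moved too, from 3307 of 29011 in the main fit. They were lowest without mice 1423, 1454 and 1455 (2614 of 28459, with 10 of the 33 genes called). They were highest with DESeq2 (4213 of the 36472 genes given an adjusted p). No filter gave 2963 of 48612, and fits without each mouse in turn gave 2685 to 3725. Msmo1, Dhcr7, Cyp51, Hmgcs1, Idi1, Elovl6, Srebf2, Lbr and Acaca kept their call in every alternative and in every fit without a mouse. Fdps lost it without mice 1423, 1454 and 1455 (adjusted p = 0.0690), Tm7sf2 with equal weight per column (fold change -0.15, adjusted p = 0.0893), Sqle in 3 of 8, and Sc5d and Stard4 in 4 of 8. Equal weight per column added Mvd, Mvk, Fdft1, Nsdhl, Ebp and Fasn to the calls. No called gene changed sign. The median of the regulators ran from -0.02 to 0.02 without each mouse.

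Over all genes, DESeq2 called 19 for fasting against chow at 16 h (14 higher, 5 lower), 5 for HFD against chow (1 higher, 4 lower) and 354 for fasting against HFD (190 higher, 164 lower). For fasting against HFD, edgeR called 65 (42 higher, 23 lower), equal weight per column 174 (101 higher, 73 lower), no filter 26 (17 higher, 9 lower), cage sums 0 and the myelin covariate 0 (none higher or lower, 2881 and 2655 at an unadjusted p under 0.05), and 38 were lower with the round of cages as a factor. None of the 33 genes was called at 16 h under any of these. The Lbr difference between studies was not called with no filter (0 genes of the 33, 0 higher, adjusted p = 0.0923) or without low columns (0 genes, 0 higher, adjusted p = 0.0839). The causes were not tested. Mouse numbers are not shared between groups, so mice were not paired one to one, and the round of cages was the block tried at 16 h.

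Depth limits low genes such as Ch25h, which was at most 1.26 CPM in any mouse at 24 h. The 23 low columns at 24 h make the weight of regions differ between mice and between diets.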
